A study of Mus musculus with 57 samples.

Results

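Skeletal muscle fibres are built from a small set of very abundant proteins, and 46 genes that encode them were followed here through developing mouse tissues with and without *Hoxa5*. The genes were taken by name from the 56860 genes of each deposited table, and all 46 were found. They comprised 13 genes of the thick filament, 12 of the thin filament, 7 of the Z-disc, 4 of titin and the M-band, 4 of protein turnover and the Kelch family, 2 of energy and oxygen supply, and 4 of excitation and calcium handling. The study compared wild-type (wt) embryos with *Hoxa5*-/- embryos, homozygous for an allele in which a neomycin cassette interrupts the homeobox, so that every tissue of the mutant carried it from conception. All mice were kept on the 129/Sv background. PolyA RNA from 57 libraries was sequenced: trachea, lung and diaphragm at E15.5 (embryonic day), lung at E12.5 and somites at E12.5 (4 wt and 4 *Hoxa5*-/- each), somites at E10.5 (4 wt and 3 *Hoxa5*-/-) and the brown fat between the shoulder blades, interscapular brown adipose tissue or iBAT, collected at E18.5 (5 and 5). Somite samples came from the cervicothoracic part of the trunk, without the limb buds, spinal cord or chest contents. Trachea, lung and diaphragm form 1 set with reads of 100 bases, and somites and iBAT another with reads of 150 bases, so that a level set across these sets cannot be told apart from the difference in sequencing. The libraries held 18369905 to 72991481 counts assigned to genes.

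*Hoxa5* was lower in the mutant libraries of all 7 contexts without overlap, although reads of its exons remained. Levels are given as TPM, the share of transcripts after division by gene length. In the diaphragm *Hoxa5* ran from 60.1 to 94.7 TPM in wt and from 15.3 to 26.6 TPM in *Hoxa5*-/-. Relative to the level, the groups lay closest in somites at E10.5, with 164 to 236 TPM in wt and 85.2 to 112 TPM in *Hoxa5*-/-.

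In a muscle fibre, myosin thick filaments pull on actin thin filaments within the sarcomere, and calcium released from the sarcoplasmic reticulum switches the thin filament on through troponin and tropomyosin. Titin reaches from the Z-disc to the M-band, the Z-disc anchors the actin filaments and the M-band holds the myosin filaments in register. Most of these parts exist as several isoforms, encoded by separate genes, and embryonic fibres use embryonic and perinatal myosins and slow troponins before the adult slow and fast isoforms take over. The thick filament genes were the heavy chains *Myh1*, *Myh2*, *Myh3*, *Myh4*, *Myh7* and *Myh8*, the light chains *Mylpf*, *Myl1*, *Myl2* and *Myl3*, and the myosin-binding proteins *Mybpc1*, *Mybpc2* and *Mybph*. The thin filament genes were the actin *Acta1*, the troponins *Tnnt1*, *Tnnt3*, *Tnni1*, *Tnni2*, *Tnnc1* and *Tnnc2*, the tropomyosins *Tpm1* and *Tpm2*, nebulin (*Neb*), which lines the filament, and the leiomodins *Lmod2* and *Lmod3*, which help actin filaments to form. The Z-disc was represented by *Actn2*, *Actn3*, *Ldb3*, *Myot*, *Myoz1*, *Myoz2* and *Tcap*, the giant protein titin and the M-band by *Ttn*, *Myom1*, *Myom2* and *Myom3*, turnover by the ubiquitin ligase family members *Trim54* and *Trim63* and the Kelch proteins *Klhl40* and *Klhl41*, energy and oxygen by creatine kinase (*Ckm*) and myoglobin (*Mb*), and excitation by *Ryr1*, *Cacna1s*, *Atp2a1* and *Casq1*. Skeletal muscle of the trunk, the limbs and the diaphragm derives from the somites, and the brown fat of the back arises from the same dermomyotome.

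The upstream sequence of 5 members is shown first, as examples: the skeletal actin *Acta1*, the slow light chain *Myl3*, the fast myosin *Myh4*, the embryonic myosin *Myh3* and the Kelch protein *Klhl41*. They are not typical of the members, since *Acta1*, *Myl3* and *Myh4* are among the only 5 of 37 with a CArG box. Each run gives the 150 bases before the RefSeq start (GRCm38.p6), 5′ to 3′ on the gene's own strand, with capitals at matches to 5 motifs: the E-box CANNTG bound by myogenic factors such as MyoD and myogenin, the TATA box TATAAA, the M-CAT element CATTCC bound by TEAD factors, the CArG box bound by serum response factor and the MEF2 motif.
*Acta1* (chr8:123894776-123894925, minus strand): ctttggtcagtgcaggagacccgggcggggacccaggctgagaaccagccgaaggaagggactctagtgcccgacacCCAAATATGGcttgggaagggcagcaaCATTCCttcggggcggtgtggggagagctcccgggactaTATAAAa
*Myl3* (chr9:110763528-110763677, plus strand): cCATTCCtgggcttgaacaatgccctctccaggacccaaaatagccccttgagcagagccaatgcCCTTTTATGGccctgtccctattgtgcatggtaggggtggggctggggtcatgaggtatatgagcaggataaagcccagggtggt
*Myh4* (chr11:67237662-67237811, plus strand): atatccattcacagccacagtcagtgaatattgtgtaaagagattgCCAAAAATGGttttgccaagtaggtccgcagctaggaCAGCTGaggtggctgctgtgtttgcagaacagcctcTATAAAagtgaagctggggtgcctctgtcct
*Myh3* (chr11:67078150-67078299, plus strand): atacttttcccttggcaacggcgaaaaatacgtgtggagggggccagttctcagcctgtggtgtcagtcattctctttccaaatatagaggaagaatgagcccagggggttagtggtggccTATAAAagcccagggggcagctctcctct
*Klhl41* (chr2:69669970-69670119, plus strand): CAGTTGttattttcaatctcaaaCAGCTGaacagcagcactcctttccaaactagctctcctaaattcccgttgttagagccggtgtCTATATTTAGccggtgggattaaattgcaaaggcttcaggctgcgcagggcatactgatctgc
The *Acta1* window holds, from left to right, a CArG box starting 73 bases before the start, an M-CAT 46 bases before it and a TATA box 7 bases before it. *Myl3* has an M-CAT at 149 bases and a CArG box at 85 bases before its start. *Myh4* has a CArG box at 104, an E-box at 67 and a TATA box at 31 bases before the start, *Myh3* a TATA box at 29 bases, and *Klhl41* E-boxes at 150 and 127 and a MEF2 motif at 63 bases.

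Of the 46 members, 37 had an entry among the RefSeq promoters, with 43 starts. Both strands of the 250 bases before each start were searched. A CArG box was found before 5 of the 37 (*Acta1*, *Ldb3*, *Myh4*, *Myl3* and *Myom1*), or 13.5%, against 1.62% of 27025 genes. A MEF2 motif was found before 7 (*Klhl41*, *Myh1*, *Myh4*, *Myh8*, *Myom3*, *Myoz2* and *Ttn*), or 18.9% against 3.42%. The M-CAT was found before 13 members (35.1% against 14.4%), the TATA box before 10 (27% against 14.3%) and the E-box before 33 (89.2% against 69.3%). Matches to different motifs shared bases in 3 members, each time a TATA box with a MEF2 motif. These matches describe the letters of the window and do not show binding.

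Of the 7 contexts the genes were by far the most abundant in the diaphragm. Their summed level in the wt diaphragm libraries was 63412, 39823, 31767 and 55692 TPM in replicates 1 to 4, a mean of 47673 ± 14453 (SD, n = 4). The wt trachea held 2735 ± 851 (SD, n = 4) TPM, the wt lung at E15.5 501 ± 26.6 (SD, n = 4) TPM and the wt lung at E12.5 372 ± 23.7 (SD, n = 4) TPM. In the other set, wt somites went from 834 ± 156 (SD, n = 4) TPM at E10.5 to 6539.9 ± 1035 (SD, n = 4) TPM at E12.5, and wt iBAT held 1788 ± 1098 (SD, n = 5) TPM. No library of the diaphragm overlapped any library of another tissue. In wt diaphragm all 46 members averaged at least 1 TPM and 36 averaged at least 100 TPM. The same counts at 100 TPM were 14 in somites at E12.5, 7 in trachea, 5 in iBAT, 2 in somites at E10.5, 2 in lung at E15.5 and 1 in lung at E12.5, all in wt.

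**Figure D1:**
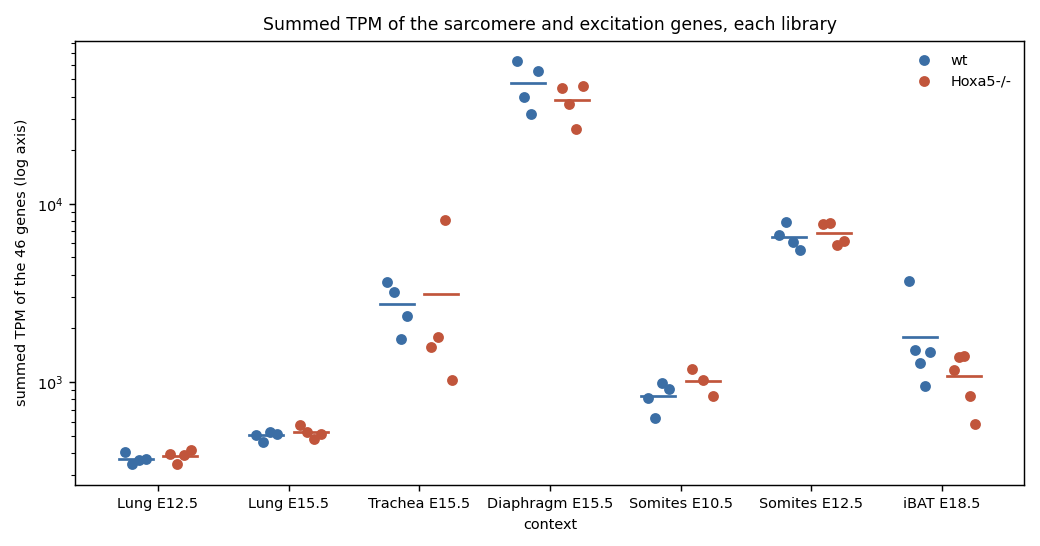
Summed TPM of the 46 genes in each of the 57 libraries on a log axis, by context and genotype, with a bar at each group mean. The 8 diaphragm libraries lie between 26248 and 63412 TPM, above every other library, and the third *Hoxa5*-/- library of the trachea lies at 8109.7 TPM, above the other 3 of its group.

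Actin and a myosin light chain led the diaphragm. *Acta1*, the actin of the adult skeletal thin filament, stood at 18193, 9706, 7827 and 14568 TPM in the wt libraries, and *Mylpf*, the regulatory light chain of fast myosin, at 11293, 7243, 5718 and 10009.9 TPM. Both were high in replicates 1 and 4 and low in replicates 2 and 3. By mean TPM over the wt diaphragm, *Acta1* ranked 5 and *Mylpf* ranked 7 among all genes of the table.

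In each of the remaining roles the member with the highest mean over all libraries is given for the wt diaphragm as mean ± SD over 4 libraries. *Actn2*, the alpha-actinin that crosslinks actin at the Z-disc, was at 1526 ± 336 TPM, and *Myom1*, which crosslinks myosin at the M-band, was at 139 ± 31.6 TPM. *Klhl41*, a Kelch protein that stabilises nebulin, was at 435 ± 99.1 TPM. *Atp2a1*, the fast calcium pump of the sarcoplasmic reticulum, was at 773 ± 244 TPM, and *Ckm*, the muscle creatine kinase that buffers ATP, at 1090.1 ± 495 TPM. *Ckm* varied most of these 5 relative to its mean.

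The wt diaphragm means of the other members covered a wide range, and those of *Myom2* and *Myom3* lay above that of *Myom1*. *Tpm2*, the beta-tropomyosin, averaged 3172 ± 786 TPM and *Tpm1* 851 ± 235 TPM, and *Myl1*, the fast essential light chain, 1869 ± 583 TPM. As means, the Z-disc genes *Ldb3*, *Myot*, *Myoz2* and *Tcap* were at 463, 251, 149.7 and 129.7 TPM, and the M-band genes *Myom2* and *Myom3* at 173 and 183 TPM. *Neb*, *Lmod3* and the Kelch gene *Klhl40* averaged 192, 204 and 142 TPM, and *Ryr1* and *Casq1* 160.1 and 285 TPM. The 10 members under 100 TPM on average were *Myl2*, *Trim54*, *Myh2*, *Cacna1s*, *Lmod2*, *Trim63*, *Mb*, *Mybpc2*, *Myh1* and *Tnnc2*, the last at 2.31 TPM. The counting of *Tnnc2* is uncertain, as described below.

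**Figure D2:**
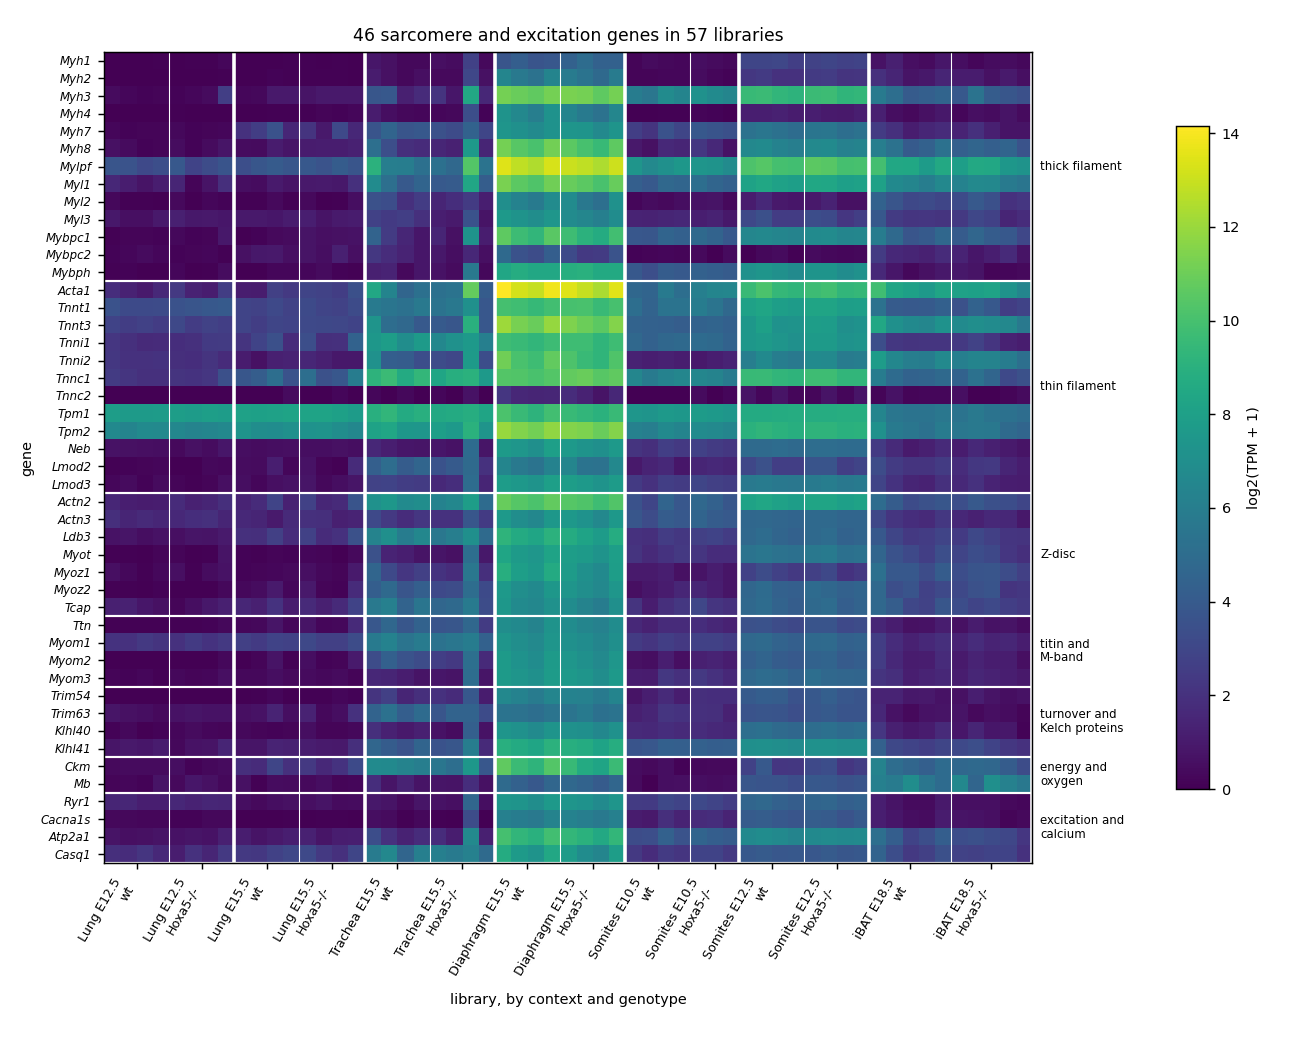
Heat map of log2(TPM + 1) for the 46 genes (rows, grouped by role) in the 57 libraries (columns, grouped by context and genotype). The diaphragm columns are the brightest in nearly every row, *Tpm1* and *Tpm2* stay visible in the lung, and the third *Hoxa5*-/- trachea column and the first wt iBAT column stand out from their groups.

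Every member was higher in wt diaphragm than in wt lung at E15.5 by edgeR's quasi-likelihood test (adjusted p under 0.05 by Benjamini-Hochberg over all tested genes, and a change of at least 1.5-fold). All 46 were called, where 20.9% of all tested genes were called higher. Of these 46, however, 27 reached the minimum mean of 1 TPM in the diaphragm alone, so that they entered the test through the group in which they were high. Among the 19 that reached 1 TPM in both tissues, 19 were called, where 16.1% of all such genes were, with a median log2 fold change of 7.44 beside -0.02 for all such genes. The widest gap among the 19 was that of *Acta1* (12.43 ± 0.69 SE). *Tpm1*, the alpha-tropomyosin that smooth muscle and fibroblasts also use, had the narrowest (1.96 ± 0.20 SE). In the wt lung at E15.5 *Tpm1* stood at 273, 262, 268 and 292 TPM and *Tpm2*, the beta-tropomyosin, at 159.6, 122, 115 and 138 TPM, and no other member averaged 100 TPM there.

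All 46 members were also higher in wt diaphragm than in wt trachea, where 14.1% of tested genes were called higher. Of the members, 6 reached 1 TPM in the diaphragm alone. Among the other 40, 40 were called, where 12.4% of all genes at 1 TPM in both tissues were, and the median log2 fold change was 4.68 beside -0.00283 for all such genes. Of these 40, *Mybph*, a myosin-binding protein H prominent in embryonic muscle (8.83 ± 0.34 SE), and *Myh3* (8.38 ± 0.86 SE) differed most. The smallest differences were those of *Tnnc1*, the troponin C of slow and cardiac muscle (1.34 ± 0.19 SE), *Tpm1* (1.07 ± 0.23 SE) and *Trim63*, a ubiquitin ligase of the sarcomere (0.85 ± 0.22 SE). *Tnnc1* was the highest member of the wt trachea, at 563, 799, 401 and 669.7 TPM. Heart genes were abundant in the same libraries: 11 heart markers (*Myl7*, *Nppa*, *Nkx2-5* and others) summed to 4229, 5993, 3356 and 5475 TPM, led by the atrial light chain *Myl7* at a mean of 3318 TPM, and all 11 averaged at least 1 TPM. In the wt diaphragm the heart list summed to 108.8 to 167 TPM. The part of the heart signal in the trachea values of *Tnnc1* and *Tpm1* was not tested.

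Somites were the setting in which the programme could be followed through time. From E10.5 to E12.5 in wt, 44 of 44 tested members rose, where 24.1% of all tested genes were called higher, but 8 of them reached 1 TPM at E12.5 alone. Of the 36 that reached 1 TPM at both stages 36 rose, where 20.7% of all such genes did, and the median log2 fold change was 2.97 beside -0.05 for all such genes. *Mybpc2* and *Tnnc2* were not tested because neither reached a mean of 1 TPM in either stage. *Acta1* went from 25.8, 22.2, 56.8 and 34.1 TPM at E10.5 to 761, 1132, 692 and 609.9 TPM at E12.5, without overlap (log2 fold change 4.48 ± 0.26 SE, adjusted p = 6.69e-09, edgeR). *Mylpf* went from 166, 99.3, 137 and 176 to 1188, 1393, 999 and 916 TPM and became the highest member of the later stage. Among the 36 the steepest rises were those of the perinatal myosin *Myh8* (log2 fold change 5.98) and the fast troponin I *Tnni2* (5.62). The least steep were those of *Tpm1* (1.17) and of the fast alpha-actinin *Actn3* (0.88), both still called. In bulk tissue of this kind, more muscle cells and more RNA per muscle cell cannot be told apart.

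Regulators of muscle, listed apart from the 46, were already present in the E10.5 somites. The 13 myogenic regulators (*Pax3*, *Myf5*, *Myod1*, *Myog* and others) summed to 187, 201, 286 and 229 TPM in the wt libraries at E10.5 and to 1117, 1217, 1081 and 966 TPM at E12.5. In the wt diaphragm they summed to 2863, 3112, 2623 and 3091 TPM, led by myogenin, *Myog*, at a mean of 1416 TPM, and all 13 averaged at least 1 TPM.

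The isoforms differed in proportion as well as in amount. Among the 6 myosin heavy chains, the embryonic *Myh3* made up 90.3% ± 0.793 (SD, n = 4) of the summed heavy chain TPM in wt somites at E10.5 and 83.4% ± 0.651 (SD, n = 4) at E12.5, while the perinatal *Myh8* made up 1.53% ± 0.348 (SD, n = 4) and then 10.55% ± 0.753 (SD, n = 4). In the wt diaphragm at E15.5 the *Myh3* share was 50.1% ± 4.88 (SD, n = 4) and the *Myh8* share 41.9% ± 4.73 (SD, n = 4), and in wt iBAT at E18.5 *Myh8* led with 49.9% ± 4.73 (SD, n = 5) against 41.9% ± 4.91 (SD, n = 5) for *Myh3*. The slow myosin *Myh7* was at 7.61% ± 0.799 (SD, n = 4), 4.71% ± 0.122 (SD, n = 4), 3.38% ± 0.334 (SD, n = 4) and 3.77% ± 0.379 (SD, n = 5) in the same 4 groups. The adult fast chains *Myh1*, *Myh2* and *Myh4* each made up less than 3% on average in all 4. These shares depend on the exon length that TPM divides by, 11772 bases for *Myh8* and 6057 for *Myh3*. By counts *Myh8* lay above *Myh3* in every wt diaphragm library, so that which chain led there rests on this length.

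The slow troponin shares are given for the same groups. Beyond the 2 somite stages these groups differ in tissue as well as in stage, and these differences cannot be told apart. *Tnni1*, the slow inhibitory subunit, was 94.8% ± 0.725 (SD, n = 4) of troponin I in wt somites at E10.5, 71.3% ± 2.80 (SD, n = 4) at E12.5, 36.0% ± 7.04 (SD, n = 4) in diaphragm and 4.39% ± 0.866 (SD, n = 5) in iBAT. *Tnnt1*, the slow subunit that binds tropomyosin, was 62.8% ± 8.31 (SD, n = 4), 59.3% ± 2.998 (SD, n = 4), 22.95% ± 4.19 (SD, n = 4) and 11.6% ± 1.81 (SD, n = 5) of troponin T. The 2 somite stages overlapped for *Tnnt1* but not for *Tnni1*. These shares compare transcripts per length within a library, and across the sets they carry the difference in sequencing named above. The regulatory light chain was nearly all of the fast form in every one of these groups, with *Mylpf* at 97.2% or more of the sum of *Mylpf* and *Myl2* on average.

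**Figure D3:**
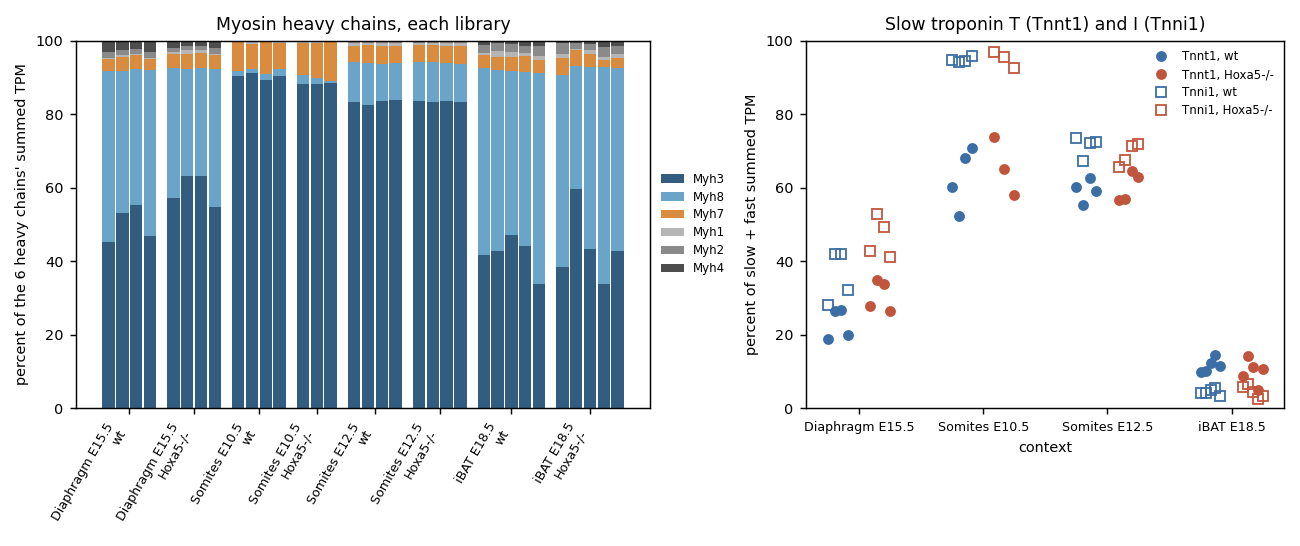
Left, percent of the summed TPM of the 6 myosin heavy chains held by each chain, 1 stacked bar per library in diaphragm, somites and iBAT. Right, percent held by the slow form of troponin T (*Tnnt1*, filled circles) and troponin I (*Tnni1*, open squares), 1 symbol per library. *Myh3* has a mean of 90.3% in wt somites at E10.5 and 41.9% in wt iBAT, which differ in tissue and stage. In the diaphragm 3 of 4 *Hoxa5*-/- libraries lie above every wt library for both slow troponins.

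The genotype comparison asked in which contexts these genes depend on *Hoxa5*. By edgeR's quasi-likelihood test none of the members was called in any of the 7 contexts in the main fit, which held genotype alone. The values below are therefore levels and estimates with their errors, not changes. In the diaphragm, 0 of 46 were called where 0.594% of all tested genes were (107 of 18019). There, 8 members had an unadjusted p under 0.05, and the lowest adjusted p was 0.111, for *Myh1*. DESeq2 called 2, *Myh1* higher and *Myl3* lower in *Hoxa5*-/-, where it called 2.25% of all tested genes. With the replicate number as a block edgeR called 9, *Myh1* higher and 8 others lower, where 1.99% of all tested genes were called. The labels do not say that this number marks a pair.

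*Myh1*, which encodes the IIx heavy chain of adult fast fibres, stood at 12.4, 17.7, 11.9 and 13.5 TPM in the wt diaphragm and at 20.2, 31.7, 20.3 and 19.9 TPM in *Hoxa5*-/-. Every mutant library was above every wt library. The log2 fold change was 0.72 ± 0.17 SE (adjusted p = 0.111 by edgeR, 0.0025 to 0.611 over the alternative settings). Its neighbours on the same cluster did not share this order. *Myh4*, the IIb chain, was 155, 94.9, 66.6 and 149 TPM in wt and 81.1, 55.9, 40.0 and 90.6 TPM in *Hoxa5*-/- (-0.82 ± 0.34 SE, adjusted p = 0.361, edgeR). The 2 genotypes overlapped for *Myh4*. *Myh2*, the IIa chain, was 87.3, 51.9, 38.8 and 82.1 TPM in wt and 57.7, 40.3, 27.2 and 58.5 TPM in *Hoxa5*-/- (-0.52 ± 0.33 SE), again with overlap.

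The slow chain *Myh7* was 162, 134, 109.1 and 150.02 TPM in wt and 166, 156, 101 and 158 TPM in *Hoxa5*-/- (0.05 ± 0.18 SE), and the groups overlapped.

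The embryonic and perinatal chains made up most of the heavy chain RNA in both genotypes. *Myh3* was 2301, 1944, 1645 and 2329.6 TPM in wt and 2483, 2309, 1611 and 2346 TPM in *Hoxa5*-/- (0.07 ± 0.17 SE). *Myh8* was 2365, 1426, 1098 and 2264 TPM in wt and 1538, 1061, 748 and 1614 TPM in *Hoxa5*-/- (-0.55 ± 0.33 SE). Neither pair of groups was apart. As a share of all heavy chains, *Myh3* was 45.3, 53.0, 55.4 and 46.7% in the wt libraries and 57.1, 63.2, 63.2 and 54.7% in the mutant ones, with 1 mutant library inside the wt range. The *Myh8* share was 46.5, 38.9, 37.0 and 45.4% in wt and 35.4, 29.03, 29.4 and 37.6% in *Hoxa5*-/-, again with 1 mutant library inside the wt range.

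The slow troponins had estimates above 0 and a slow myosin light chain one below it. *Tnnc1* stood at 1309, 1289, 1072 and 1323 TPM in wt and 1711, 1949, 1411 and 1673 TPM in *Hoxa5*-/-. All 4 mutant libraries were above all 4 wt libraries. The estimate was 0.42 ± 0.11 SE on the log2 scale, and edgeR's adjusted p was 0.151 (0.012 to 0.720 over the alternatives). *Myl3*, the essential light chain of slow and ventricular myosin, was the light chain concerned, at 196, 154, 119.6 and 174 TPM in wt and 111, 88.8, 68.0 and 116 TPM in *Hoxa5*-/-. It differed by -0.76 ± 0.21 SE on the log2 scale (adjusted p = 0.173 by edgeR, 0.00337 to 0.449 over the alternatives). As a share of the essential light chains it was 7.28, 9.09, 8.83 and 7.30% in wt and 5.65, 5.52, 5.82 and 5.90% in *Hoxa5*-/-, without overlap. *Tnni1* was 849, 776, 628 and 829.7 TPM in wt and 879, 873, 607 and 858 TPM in *Hoxa5*-/- (0.05 ± 0.15 SE), and *Tnnt1* was 1023, 885, 707 and 951 and 1032, 1072, 781 and 1054 TPM (0.13 ± 0.15 SE). The genotypes overlapped for both.

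Their fast partners had estimates below 0. *Tnni2* was 2183, 1075, 868 and 1743 TPM in wt and 1180.3, 775, 621 and 1234 TPM in *Hoxa5*-/- (-0.65 ± 0.35 SE, adjusted p = 0.477, edgeR). *Tnnt3* was 4393, 2454, 1948 and 3851 and 2692, 1999.6, 1539 and 2950.3 TPM (-0.48 ± 0.31 SE). The wt libraries 1 and 4 were the highest of the 8 for *Tnni2*, and the remaining ones overlapped. *Tnnc2*, the fast troponin C, was 3.66, 1.98, 1.73 and 1.86 TPM in wt and 2.53, 1.60, 0.649 and 1.93 TPM in *Hoxa5*-/- (-0.44 ± 0.42 SE), with overlap. Its values rest on 5 to 20 counts a library and on exons that mostly overlap another gene, as described below. The *Tnni1* share of troponin I was 27.996, 41.9, 42.0 and 32.3% in wt and 42.7, 52.9, 49.4 and 41.0% in *Hoxa5*-/-, and the *Tnnt1* share of troponin T was 18.9, 26.5, 26.6 and 19.8% and 27.7, 34.9, 33.7 and 26.3%. In both families the lowest mutant library lay below the highest wt library and the other 3 mutant libraries lay above all 4 wt libraries.

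Taken over the fibre type lists, 11 of 13 fast isoform genes were estimated lower in the *Hoxa5*-/- diaphragm, with a median log2 fold change of -0.49, and 4 of 7 slow isoform genes higher, with a median of 0.05. The slow list held *Myh7*, *Myl2*, *Myl3*, *Myoz2*, *Tnnc1*, *Tnni1* and *Tnnt1*. It left out *Mybpc1*, the slow myosin-binding protein C, though *Mybpc2* was in the fast list. With the replicate number as a block, *Mybpc1* had a log2 fold change of -0.70 ± 0.08 SE. This is not the main fit behind the other estimates of this paragraph, and its errors were smaller. For *Ckm* it gave -0.94 ± 0.09 SE, beside -0.96 ± 0.42 SE in the main fit. Over all 46 members 34 were estimated lower and 12 higher, with a median of -0.25 beside 0.00 for all tested genes; this median was -0.11 without the first wt library and -0.39 without the third. The largest negative estimates were those of *Mybpc2*, the fast myosin-binding protein C (-1.23 ± 0.46 SE, adjusted p = 0.302), *Ckm* (-0.96 ± 0.42 SE, adjusted p = 0.382) and *Myoz1*, the fast-fibre Z-disc protein calsarcin-2 (-0.95 ± 0.37 SE, adjusted p = 0.320, all edgeR). *Ckm* was 1664, 785, 584 and 1327 TPM in wt and 748, 403, 309 and 815 TPM in *Hoxa5*-/-, with 2 wt libraries above all others. *Acta1* was 11123, 7721, 5237 and 11613 TPM in *Hoxa5*-/- (-0.52 ± 0.34 SE), with 2 of the 4 inside the range of the wt libraries given above and 2 below it.

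By role, 9 of 13 thick filament genes, 8 of 12 thin filament genes, 6 of 7 Z-disc genes, 4 of 4 genes of titin and the M-band, 3 of 4 turnover and Kelch genes, 3 of 4 excitation genes and 1 of 2 energy and oxygen genes were estimated lower. The excitation genes were *Ryr1*, the calcium release channel (-0.13 ± 0.18 SE), *Cacna1s*, the voltage sensor of the T-tubule (0.01 ± 0.17 SE), *Casq1*, the fast calcium-storage protein of the reticulum (-0.83 ± 0.41 SE) and *Atp2a1* (-0.49 ± 0.27 SE). *Atp2a1* was 1025, 633, 506 and 929 TPM in wt and 671, 529.7, 376 and 660.3 TPM in *Hoxa5*-/-, with overlap. Among the leaders of the other roles, *Actn2* was 1886, 1379, 1133 and 1706 TPM in wt and 1350.3, 1229, 854 and 1265 TPM in *Hoxa5*-/- (-0.40 ± 0.20 SE). *Myom1* was 164, 127, 100.3 and 167 TPM in wt and 136, 118, 86.3 and 133 TPM in *Hoxa5*-/- (-0.25 ± 0.21 SE), and *Klhl41* was 488, 398, 314 and 538 and 469, 419, 299 and 448 TPM (-0.10 ± 0.20 SE). The genotypes overlapped for all 3. Titin itself, *Ttn*, was 119.8, 103, 78.6 and 154 TPM in wt and 118, 84.4, 72.2 and 117 TPM in *Hoxa5*-/- (-0.23 ± 0.24 SE), with overlapping libraries. The energy pair was split, with *Mb* at 28.7, 19.8, 13.98 and 24.1 TPM in wt and 26.3, 21.6, 15.52 and 24.7 TPM in *Hoxa5*-/- (0.01 ± 0.25 SE).

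**Figure D4:**
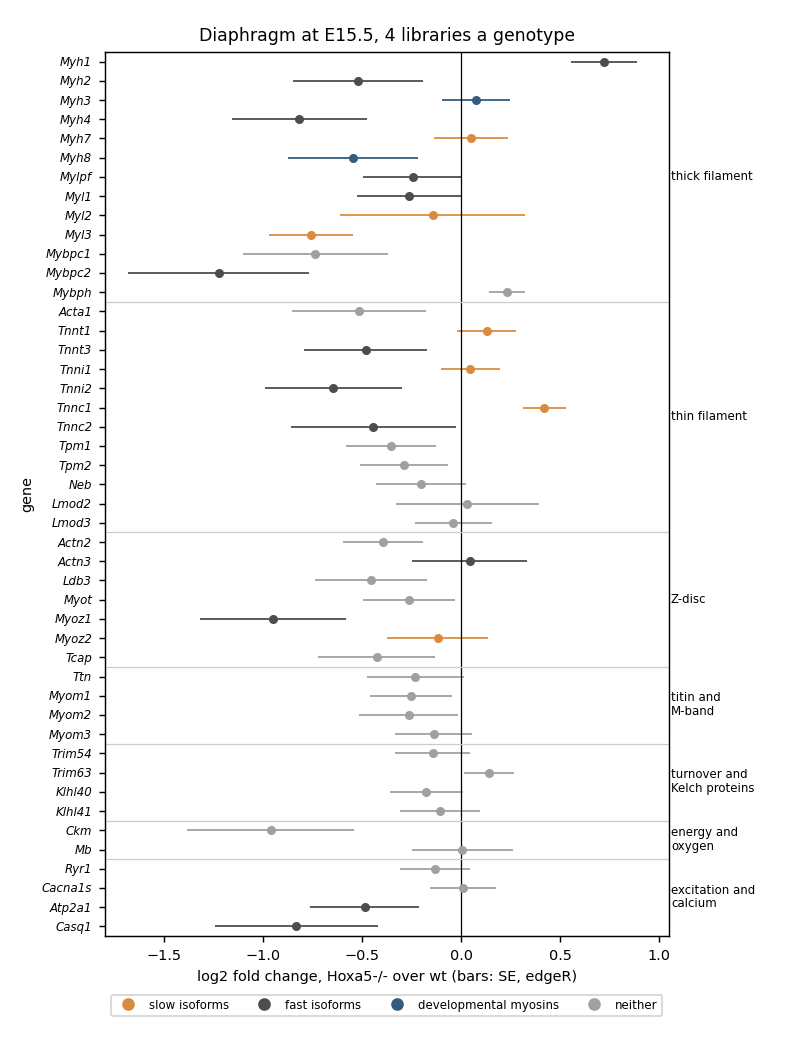
Log2 fold change, *Hoxa5*-/- over wt, of the 46 genes in the diaphragm at E15.5 with bars of 1 SE, grouped by role and coloured by fibre type. No gene was called by edgeR in the main fit. *Myh1* and *Tnnc1* lie furthest above 0 and *Mybpc2*, *Ckm*, *Myoz1* and *Casq1* furthest below it.

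Other muscle lists in the diaphragm showed calls outside the 46, set against 0.594% of all tested genes called by edgeR and 2.25% by DESeq2. Of 46 further sarcomere and cytoskeletal genes, 2 were called lower (*Myoz3*, log2 fold change -1.85, and the intermediate filament gene *Synm*, -1.36) and 2 higher (the titin-binding ankyrin repeat genes *Ankrd2*, 0.97, and *Ankrd1*, 0.85). Of 30 tested further excitation genes 29 were estimated lower, with a median of -0.25, and 0 were called or had an unadjusted p under 0.05. Of 13 myogenic regulators 10 were estimated higher (median 0.17), with 4 at an unadjusted p under 0.05 and 0 called, and of 8 neuromuscular junction genes 7 were estimated higher (median 0.23), with 5 at an unadjusted p under 0.05 and 0 called. DESeq2 called 0 in the first 2 of these 3 lists and 1 in the junction list (*Chrna1*, the muscle acetylcholine receptor subunit). In the further sarcomere genes it called 6, the same 4 together with *Kbtbd13* and *Mylk2*.

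Some markers of neighbouring tissue were called between genotypes in the same libraries. Of 8 smooth muscle markers, 4 were called lower in the *Hoxa5*-/- diaphragm by edgeR, where 0.594% of all tested genes were called: *Actg2* (log2 fold change -4.63), *Myh11* (-4.34), *Cnn1* (-3.30) and *Myocd* (-2.73). The list summed to 2018, 2241, 1373 and 1606 TPM in wt and 1428, 1465, 1046 and 1263 TPM in *Hoxa5*-/-, led by *Acta2*. Foregut epithelium markers summed to 231, 393, 120.1 and 24.8 TPM in wt and 28.5, 17.9, 30.1 and 31.2 TPM in *Hoxa5*-/-, with the fourth wt library inside the mutant range and *Esrp1* alone of 7 called lower by edgeR (-5.98), against 4 of 7 by DESeq2. Neuron and glia markers summed to 38.1, 61.4, 29.3 and 37.4 and 8.07, 9.88, 11.3 and 8.88 TPM, with *Stmn2*, *Tubb3* and *Sox10* called lower. Hepatocyte markers, led by *Alb*, ran from 1529 to 8643 TPM in wt and from 350.4 to 10661 TPM in *Hoxa5*-/-, with 0 genes called by edgeR or DESeq2 and 0 at an unadjusted p under 0.05. The part of these tissues in the values of the 46 genes was not tested.

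In somites at E10.5 the estimates lay on the other side. Of 37 tested members 0 were called, where 0.0215% of all tested genes were, while 7 had an unadjusted p under 0.05 and all 7 were higher in *Hoxa5*-/-. DESeq2 called 1, *Acta1*, where it called 0.0969% of all tested genes. *Acta1* stood at 25.8, 22.2, 56.8 and 34.1 TPM in wt and 68.2, 86.9 and 89.4 TPM in *Hoxa5*-/-, with every mutant library above every wt library. Its log2 fold change was 1.204 ± 0.25 SE (adjusted p = 0.391 by edgeR, 4.21e-12 to 0.751 over the alternatives). The third wt library was the highest of its group for *Acta1*, and without it the same test called 7 members higher: *Acta1*, *Atp2a1*, *Ldb3*, *Myh3*, *Myh7*, *Myom2* and *Trim54*, with adjusted p from 0.00518 to 0.036. In that fit the share of all tested genes called rose as well, to 2.07% (386 of 18664). With any other single library of this context left out, 0 members were called. Leaving out the highest wt library also widens the gap for *Acta1* by itself.

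Of those 7, *Myh7* was 5.21, 3.43, 10.7 and 6.70 TPM in wt and 14.1, 11.8 and 10.2 TPM in *Hoxa5*-/- (0.85 ± 0.27 SE), and *Myh3* was 59.996, 46.7, 111 and 82.7 and 143, 108.8 and 84.7 TPM (0.54 ± 0.23 SE). The third wt library lay inside the mutant range for both. *Myom2* reached 1 TPM in the mutant group alone. Over the 37 tested members 29 were estimated higher, with a median of 0.27 beside -0.01 for all tested genes (0.17 without the second wt library). The slow troponin *Tnni1* was 26.8, 20.2, 25.1 and 27.1 TPM in wt and 29.9, 27.2 and 20.7 TPM in *Hoxa5*-/- (0.01 ± 0.14 SE). The myogenic regulators summed to 305, 267 and 257 TPM in the *Hoxa5*-/- libraries, with 12 of 13 estimated higher (median 0.23), 2 at an unadjusted p under 0.05 and 0 called by edgeR or DESeq2. Foregut epithelium markers averaged 41.5 TPM in wt and 60.5 TPM in *Hoxa5*-/-, and mesothelium markers 14.6 and 23.5 TPM. Heart markers averaged 28.6 and 36.4 TPM and connective tissue markers 613 and 745 TPM. Brown adipocyte and hepatocyte markers averaged lower in *Hoxa5*-/-. The part of these tissues in the values of the members was not tested.

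At E12.5 the estimates lay close to 0. Of 44 tested members 0 were called, where 0.00529% of all tested genes were, none had an unadjusted p under 0.05, and DESeq2 called 0 (0.0106% of all tested genes). *Acta1* was 761, 1132, 692 and 609.9 TPM in wt and 843, 932, 625 and 673 TPM in *Hoxa5*-/- (-0.05 ± 0.18 SE), and the summed level was 6695, 7899, 6092 and 5473 TPM in wt and 7727, 7786, 5845 and 6180.4 TPM in *Hoxa5*-/-. The median log2 fold change was 0.07, with 35 estimates above 0, and -0.01 without the fourth wt library or 0.18 without the second. An interaction fit asked whether the genotype effect was the same at E10.5 and E12.5. By edgeR 0 of 44 members differed, where 0.0147% of all tested genes did, with 7 at an unadjusted p under 0.05, and DESeq2 called 0 (0.0833% of all tested genes). For *Acta1* the difference, E12.5 minus E10.5, was -1.26 ± 0.32 SE (adjusted p = 0.327 by edgeR, 6.41e-20 to 0.576 over the alternatives).

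Brown fat itself contains no sarcomeres, yet the iBAT libraries held the genes at a level that varied from library to library. The tissue was identified by its own markers: 8 brown adipocyte genes (*Ucp1*, *Cidea*, *Fabp4* and others) summed to 18868 ± 2829.8 (SD, n = 5) TPM in wt and 19543 ± 1235 (SD, n = 5) TPM in *Hoxa5*-/-. The 46 genes summed to 3711, 1521, 1277, 954 and 1476 TPM in wt and 1167, 1389, 1396, 834 and 585 TPM in *Hoxa5*-/-. The first wt library was far above the other 9, and the remaining wt and mutant libraries overlapped. *Acta1* was 887, 324.3, 262, 193 and 304 TPM in wt and 272, 262, 294, 152 and 86.8 TPM in *Hoxa5*-/-, and *Mylpf*, the highest member in both, was 969.8, 357, 346, 213 and 374 TPM in wt and 244, 372, 363, 176 and 154 TPM in *Hoxa5*-/-.

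Of 39 tested members 0 were called between genotypes in iBAT, where 0.00657% of all tested genes were. The estimates of 38 lay below 0 with a median of -0.74, and 26 had an unadjusted p under 0.05, but the lowest adjusted p was 0.9999 (edgeR), and DESeq2 called 0 (0.0263% of all tested genes). All 39 averaged at least 1 TPM in wt and 35 did in *Hoxa5*-/-. The others thus entered the test through wt, where they were higher. *Acta1* had a log2 fold change of -0.83 ± 0.38 SE and *Actn3*, the alpha-actinin of fast fibres, one of -1.14 ± 0.30 SE. Without the first wt library the median was -0.32 and 3 members had an unadjusted p under 0.05. The exception among the 39 was myoglobin, with *Mb* at 70.3, 59.3, 121, 45.4 and 30.4 TPM in wt and 96.3, 23.3, 129, 72.2 and 49.3 TPM in *Hoxa5*-/- (0.22 ± 0.42 SE).

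The members varied together across these libraries. Over the 10 iBAT libraries, each of 37 members with a mean of at least 1 TPM was set against the mean log2(TPM + 1) of the other members, and the median Pearson r was 0.941, with 35 above 0.8. The median was 0.961 over the 5 wt libraries alone and 0.893 over the 5 mutant ones, and it lay between 0.873 and 0.954 when any 1 library was left out. Computed in the same way, the median r was 0.943 in the diaphragm and 0.882 in the trachea. It was 0.871 in somites at E10.5 and 0.935 at E12.5. In iBAT *Mb* stood apart with an r of -0.094 over the 10 libraries. These r values describe points that share a library and its depth. Of 9898 other genes with a mean of at least 5 TPM, those most like the mean of the members were *Casq2* (r = 0.980), *Atp1b4*, *Sh3bgr*, *Eno3*, *Mylf-ps*, *Csrp3*, *Pygm*, *Actc1*, *Ckmt2* and *Nexn*. *Mylf-ps* shares sequence with the member *Myl1*: 2.97% of the 100-base stretches of *Myl1* transcripts also occur in it. *Casq2* encodes the calcium-storage protein of slow and cardiac fibres, *Eno3* and *Pygm* are enzymes of muscle glycolysis and glycogen breakdown, and *Actc1* is the cardiac actin that embryonic skeletal muscle also uses.

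Heart genes were at or near 0 in iBAT. The 11 heart markers summed to 4.05 to 6.16 TPM in wt and 4.21 to 5.17 TPM in *Hoxa5*-/-, with *Nppa*, *Myl7* and *Nkx2-5* listed at 0 in both genotypes. The myogenic regulators summed to 53.8 ± 12.4 (SD, n = 5) TPM in wt and 46.7 ± 5.93 (SD, n = 5) TPM in *Hoxa5*-/-, led by the broadly used *Mef2a*, with *Pax3* listed at 0. *Tnni2* was at 95.6% ± 0.866 (SD, n = 5) of troponin I in wt and 95.5% ± 1.62 (SD, n = 5) in *Hoxa5*-/-, and *Myh8* at 49.9% ± 4.73 (SD, n = 5) and 48.9% ± 9.36 (SD, n = 5) of the heavy chains.

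**Figure D5:**
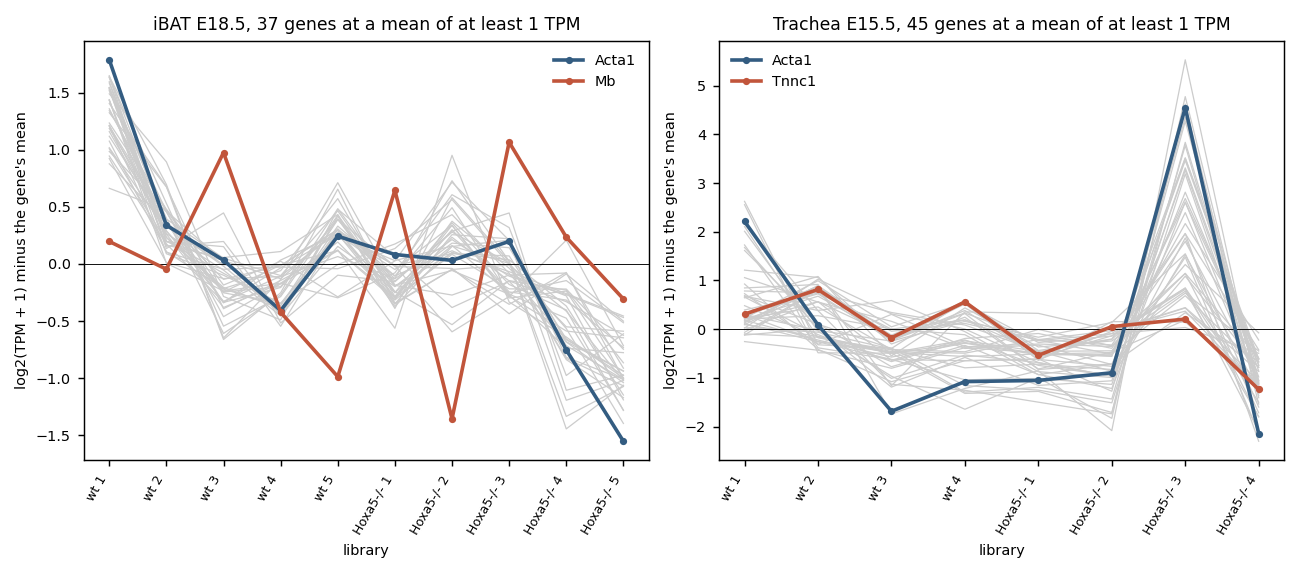
Log2(TPM + 1) of each member minus its mean over the libraries shown, across the 10 iBAT libraries (left, 37 genes) and the 8 trachea libraries (right, 45 genes), 1 line per gene. In iBAT every line but that of *Mb* peaks in the first wt library, and in trachea the third *Hoxa5*-/- library is the highest for *Acta1* and most other members but not for *Tnnc1*.

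Set against somites at E12.5, wt iBAT held a different selection of the genes. Of 45 tested members 9 were called higher in iBAT, where 31% of all tested genes were called higher, and 26 lower, where 35.3% were. Of the 45, 1 reached 1 TPM in iBAT alone and 6 in somites alone. Among the other 38, 8 were called higher, where 35.6% of all genes at 1 TPM in both were, and 21 lower, where 26.7% were. Higher were *Myl2* (4.35), *Mb* (3.78), *Ckm* (3.58), *Myoz1* (2.76), *Tnni2* (1.83), *Tnnt3* (1.0501), *Myl3* (0.98) and *Lmod2* (0.70), all as log2 fold changes. The furthest lower of the 38 were *Tnni1* (-3.95), *Myh3* (-3.36) and *Tnnc1* (-3.22). Over the 38 the median was -1.02, beside 0.13 for all such genes. The samples differ in stage as well as in tissue, and these 2 differences cannot be told apart.

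In the trachea 1 mutant library stood far from the others. The summed level was 3641, 3206, 1747 and 2346 TPM in wt and 1568, 1784, 8109.7 and 1024 TPM in *Hoxa5*-/-, so that the third mutant library was above all others, 2 of the remaining 3 lay below every wt library and 1 lay inside the wt range. *Acta1* was 357, 81.2, 23.1 and 35.7 TPM in wt and 36.3, 40.6, 1805 and 16.5 TPM in *Hoxa5*-/-. *Mylpf* was 537, 64.4, 64.0 and 35.7 TPM in wt and 36.8, 26.98, 1304 and 41.3 TPM in *Hoxa5*-/-. The first wt library was high for both as well.

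Of 45 tested members 0 were called in the trachea, where 0.0156% of all tested genes were, and 3 had an unadjusted p under 0.05. DESeq2 called 0 (0.271% of all tested genes) but gave no adjusted p for 23 of the 45. The median log2 fold change was 0.38 with all libraries and -1.24 without the third mutant library, when 27 of 40 tested members had an unadjusted p under 0.05 and still 0 were called, as were 0% of all tested genes. *Tnnc1*, *Myl2* and *Tpm1*, which heart muscle also uses, had estimates below 0 and were not called. *Tnnc1* was 313, 471, 524 and 192 TPM in the mutant libraries (-0.71 ± 0.32 SE), *Myl2*, the ventricular and slow regulatory light chain, had a log2 fold change of -1.42 ± 0.50 SE and *Tpm1* one of -0.41 ± 0.16 SE. The heart markers summed to 2519, 3271, 2839 and 1633 TPM in *Hoxa5*-/-, against the wt sums of 3356 to 5993 TPM. DESeq2 called 2 of these 11 markers, *Myh6* and *Myl7*, where it called 0.271% of all tested genes. The part of the heart markers in *Tnnc1*, *Myl2* and *Tpm1* was not tested. The cartilage markers, led by *Col2a1*, summed to 1480.5, 1647, 1369 and 1170.3 TPM in wt and 1665, 943, 4001 and 1170.2 TPM in *Hoxa5*-/-, and the myogenic regulators to 112, 129.7, 109.2 and 117 and 95.7, 95.7, 473 and 92.2 TPM, highest in the third mutant library.

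In the lung fewer members could be tested than in the other tissues. At E12.5, 18 members were tested and 0 called, where 0.0798% of all tested genes were, with 3 at an unadjusted p under 0.05. At E15.5, 23 were tested and 0 called, where 0.124% were, again with 3 at an unadjusted p under 0.05, and DESeq2 called 0 at both stages, where it called 0.462% of all tested genes at E12.5 and 0.467% at E15.5. *Acta1* at E15.5 was 1.21, 1.10, 5.52 and 4.13 TPM in wt and 6.54, 5.85, 4.89 and 9.80 TPM in *Hoxa5*-/- (1.37 ± 0.56 SE, adjusted p = 0.743, edgeR). *Tpm1* was 293, 294, 264 and 218 TPM in *Hoxa5*-/- at E15.5 (0.07 ± 0.07 SE) beside the wt values given above, and the smooth muscle markers, which use both tropomyosins, summed to 1544 ± 236 (SD, n = 4) TPM in wt and 1578 ± 377 (SD, n = 4) TPM in *Hoxa5*-/-. Of the 23 tested members 22 were estimated higher in *Hoxa5*-/- at E15.5, with a median of 0.46 that became 0.08 without the fourth mutant library. All 23 averaged at least 1 TPM in *Hoxa5*-/- and 19 did in wt. The others thus entered the test through the group in which they were higher. In these libraries *Tnnc1* was 12.9, 16.8, 33.6 and 10.7 TPM in wt and 33.1, 10.2, 13.2 and 59.8 TPM in *Hoxa5*-/-, and *Tnni1* was 3.41, 6.24, 9.82 and 2.37 and 9.36, 2.697, 2.90 and 21.02 TPM. The heart markers, led by *Myl7*, summed to 92.6, 129.9, 269 and 94.0 TPM in wt and 246, 73.3, 96.8 and 519.5 TPM in *Hoxa5*-/-, so that they, *Tnnc1* and *Tnni1* were all highest in the fourth mutant library. By the paper's sequencing statistics that library had the lowest shares of mapped and of assigned reads among the lung libraries at E15.5. Hepatocyte markers summed to 42.7, 4.15, 7.11 and 4.36 and 4.32, 6.11, 454 and 9.66 TPM, highest in the third mutant library. The part of these tissues in the lung values was not tested.

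Whether the diaphragm responded to genotype otherwise than the trachea or the lung at E15.5 was tested as well. Against the trachea 0 of 46 members differed, where 0.439% of all tested genes did, with 5 at an unadjusted p under 0.05 and 0 called by DESeq2 (1.86% of all tested genes, and no adjusted p for 4 members). Against the lung 0 of 46 differed, where 0.73% did, with 5 at an unadjusted p under 0.05. In wt, 27 of the 46 reached 1 TPM in the diaphragm but not in the lung, and 6 in the diaphragm but not in the trachea. DESeq2 called 1 against the lung, *Mybpc1*, the slow myosin-binding protein C, where it called 1.61% of all tested genes, a share near that of the members. For *Mybpc1* edgeR gave a difference of -2.57 ± 0.75 SE and an adjusted p of 0.210 (0.0277 to 0.458 over the alternatives). *Mybpc1* was 1585, 844, 646 and 1463 TPM in wt diaphragm and 855, 542, 420.1 and 946 TPM in *Hoxa5*-/- diaphragm, and 0.0372 to 0.343 TPM in wt and 0.481 to 0.668 TPM in *Hoxa5*-/- lung at E15.5. It thus entered the test against the lung through the diaphragm alone. Both comparisons use the same 8 diaphragm libraries.

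Some of these genes lie where counting is uncertain. In GRCm39 the heavy chains *Myh3*, *Myh2*, *Myh1*, *Myh4* and *Myh8* stand in a row on the plus strand of chromosome 11 between 66969126 and 67199460, and *Myh7* lies on the minus strand of chromosome 14 (55208141 to 55232083). Of windows of 100 bases along their transcripts, 8.2% of those of *Myh7*, 6.9% of *Myh2*, 5.7% of *Myh1*, 4.8% of *Myh8* and 3.1% of *Myh4* also occur in other genes, so that reads of unique position still cover most of each gene. *Tnnc2*, the fast troponin C on chromosome 2 (164619081 to 164621887), shares 74.0% of its exon bases with *Ube2c* on the opposite strand. It was listed at 2.31 ± 0.910 (SD, n = 4) TPM in wt diaphragm beside 141 ± 41.2 (SD, n = 4) TPM for *Ube2c*, a cell cycle gene. *Mybph* shares 49.9% of its exon bases with *Adora1*, *Mb* 31.9% with other genes, *Trim54* 26.6% with another gene, *Atp2a1* 21.9% with *Rabep2*, and *Klhl40* 21.6%, *Ckm* 21.4% and *Cacna1s* 19.98% with another gene each, all on the opposite strand. In the remaining members the shared part was 15.2% in *Myh7* and 8.11% or less in the others. The strand setting of the counting is not given in the sources used here, and the values of these 8 genes are uncertain for this reason.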

How the data were processed

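Bulk polyA RNA-seq of 57 libraries was analysed in 7 contexts. The raw counts per gene were deposited by the authors and come from featureCounts 2.0.3, on unique alignments made with STAR 2.7.9a against GRCm39 (Hox genes curated by hand) after adapter trimming in Trim Galore 0.6.5. The deposited TPM values, which the authors computed from these counts, divide each count by gene length and scale every library to the same total. All 57 columns of each unit were used. No columns belong to unlisted samples, so none was set aside.

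Counts were tested with edgeR 4.0.16 (quasi-likelihood, TMM, R 4.3.3) on all genes with a mean of at least 1 TPM in a group of the comparison, with Benjamini-Hochberg adjustment over those genes. Calls needed an adjusted p under 0.05 together with a 1.5-fold difference or more, as the study's methods set it, and an interaction at an adjusted p under 0.05 alone. DESeq2 1.42.0 was an alternative, and the remaining ones were other filters, scalings, fits and libraries left out. SE is that of the log2 fold change, from the F statistic. The scripts recovered known changes when tested on simulated data. Those changes were planted in well-counted genes and were larger than any member's genotype estimate in the diaphragm. The simulation therefore does not show whether changes of the members' size would be called. Levels and shares are per library from TPM, and n is the number of libraries. The study describes the wt libraries of a context as separate embryos. No pair of libraries was identical.

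The members and all lists were chosen with earlier results of these data known. Values are given in full in the diaphragm for the member with the highest mean of each role, the myosin heavy chains, the slow and fast troponins, and members called by any tool. *Mb*, *Tnnc1*, *Myl3*, *Mybpc1*, *Tpm1*, *Tpm2*, *Ttn* and *Hoxa5* were added after their values were seen. The mutant allele still gives *Hoxa5* reads. Promoter windows came from RefSeq on GRCm38.p6, while gene positions are those of GRCm39, and no coordinate was converted.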

Additional observations from a re-analysis of the deposited data

Results flagged for a closer look

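Summed TPM of the 46 genes and the TPM of the leading member of each of the 7 roles were screened for a library far from the rest of its group, in 104 pairs of a value and a group with 4 or 5 libraries; the gap to the nearest library was set against the range of the group by Dixon's criterion, by which chance alone would flag about 1 in 20. It picked out 12.

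In the trachea 5 of the 12 were found. The third *Hoxa5*-/- library had a summed level of 8109.7 TPM against 1024 to 1784 TPM in the other 3, with *Acta1* at 1805 TPM against 16.5 to 40.6, *Mylpf* at 1304 TPM against 26.98 to 41.3 and *Atp2a1* at 102 TPM against 1.21 to 2.50. Of all 46 members, 27 had an outlying library in this group, each time the third. The first wt library had *Mylpf* at 537 TPM against 35.7 to 64.4.

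In iBAT the first wt library was picked out in 5 values: the summed level of 3711 TPM against 954 to 1521 TPM, *Mylpf* at 969.8 TPM against 213 to 374, *Acta1* at 887 TPM against 193 to 324, *Ckm* at 80.6 TPM against 18.3 to 31.8, and *Klhl41* at 19.9 TPM against 5.11 to 7.25. Of all 46 members, 19 had an outlying library in this group, 18 of them the first.

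The last 2 concerned low values in the lung at E15.5, *Ckm* at 6.76 TPM in the third wt library against 2.29 to 2.84 in the others, and *Klhl41* at 2.77 TPM in the fourth *Hoxa5*-/- library against 0.990 to 1.195. Why these libraries stood apart was not tested.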

How the results depend on the processing

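Counts of called members and medians were recomputed with DESeq2, other scalings and filters, no fold minimum, 1 fit per table, blocks for the numbers, and each library left out. A count was taken as unmoved within 1.5 times its value, a mean level within 1 SD of its group, the median r in iBAT within its jackknife SE and a median log2 fold change within the median SE of the members. Of the recomputed counts, levels and r values 286 were unmoved and 10 moved, and of the medians 209 were unmoved, 2 moved and 4 changed sign. In the diaphragm DESeq2 called 2 members (*Myh1* and *Myl3*). In somites at E10.5 it called 1, no filter on low counts 3 (*Acta1*, *Myh7* and *Myom2*; 0.399% of all tested genes), and leaving out 1 library gave 0 to 7. In iBAT no filter called 1 (*Atp2a1*; 0.0173% of all). The stage interaction in somites gave 5 without a filter (0.765% of all) and 0 to 5 with 1 library left out. The latter 5 of 44 came without the third wt library at E10.5, when 12.6% of all tested genes were called, so that the members' share was not above the general one. The diaphragm and lung interaction gave 1 by DESeq2 (*Mybpc1*). The medians with 1 library left out ran from -1.24 to 0.66 in trachea, from -0.0085 to 0.18 in somites at E12.5, from -0.89 to -0.32 in iBAT, from -1.0 to 1.01 for the diaphragm and trachea interaction, and from -1.79 to -1.35 for iBAT over somites. The cause of these shifts was not tested. With 1 library left out, 43 to 44 members were called between the wt somite stages, 46 for diaphragm over lung and over trachea, and 31 to 34 for iBAT over somites, each time fewer than the 35 with all libraries. The labels do not say that a replicate number shared by the genotypes marks a pair. Correlations of same-numbered deviations ran from -0.03 to 0.53 in the diaphragm and from 0.06 to 0.24 in iBAT, and no context had all of them above 0.1. In the diaphragm 3 of 4 wt libraries correlated best with their own number. With the replicate number as a block, 9 members were called in the diaphragm (*Myh1* higher, *Casq1*, *Ckm*, *Mybpc1*, *Mybpc2*, *Myh4*, *Myl3*, *Myoz1* and *Tnni2* lower) where 1.99% of all tested genes were, 1 in the diaphragm and lung interaction (0.73% of all), and the trachea median was -0.46. No other count of calls moved by over 1.5 times with the block. The iBAT descriptions also open with a number shared by the same-numbered libraries of both genotypes, its meaning not given in the sources used here. With it as a block 0 members were called, 33 of 39 had an unadjusted p under 0.05 against 26 without, and the median was -0.67. Members under a mean of 1 TPM were not tested, and how far depth limits the calls was not measured.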

Other observations

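The cardiac actin *Actc1*, which embryonic skeletal muscle also uses, was close to *Acta1* in the diaphragm, at 11893 ± 2322 (SD, n = 4) TPM in wt and 11227 ± 2114 (SD, n = 4) TPM in *Hoxa5*-/-. In wt somites at E10.5 it was 279.5 ± 55.7 (SD, n = 4) TPM, above the 22.2 to 56.8 TPM of *Acta1* in the same libraries, and at E12.5 it was 2197 ± 268 (SD, n = 4) TPM. In the wt trachea it reached 2821 ± 831 (SD, n = 4) TPM beside the abundant heart markers there.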
